A study of Saccharomyces cerevisiae with 8 samples.

Results

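Tandem intergenic regions are the stretches between neighbouring protein-coding genes that are read in the same direction, so that each one follows the end of an upstream gene and precedes the start of a downstream gene. They were taken as gaps of 150 to under 1500 bp between neighbouring coding sequences on the same strand, together with 200 bp into either gene. In the sacCer3 (R64) genome 2559 gaps met this rule. Of these, 544 lay beyond the first position on chromosomes IV, VII, VIII, XV and XVI from which coordinates could differ between strains, and 2015 were kept. The kept tandem gaps were 2015 of 3906 kept gaps of this length, beside 1058 divergent gaps, which lie between 2 gene starts, and 833 convergent gaps, which lie between 2 gene ends. In 1003 tandem regions both genes lay on the Watson strand and in 1012 both lay on the Crick strand, and 101 gaps also held a non-coding gene.

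A tandem region has to hold the terminator of one gene and the promoter of the next. In yeast, promoters usually carry a nucleosome-depleted region bounded by the -1 nucleosome upstream and the +1 nucleosome downstream, and the +1 nucleosome lies close to the transcription start and begins the regular array over the gene. Many gene ends also have a depleted region after the last, or terminal, nucleosome of the gene, where polyadenylation signals lie.

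Nucleosome positions had been measured in 4 strains of budding yeast by MNase-seq, which cuts exposed DNA with micrococcal nuclease and sequences what nucleosomes protect. All strains were derived from PPY1, with the genotype MATa his3Δ0 leu2Δ0 met15Δ0 ura3Δ0 bar1::leu2, and each was labelled as carrying an 81 bp sequence in 2 genes, namely CKB2 and DGK1 in strain 1, PPT1 and SLM3 in strain 2, TRP4 and PAN5 in strain 3, and UBX5 and BSP1 in strain 4. Cells grew in YPD and were synchronised in G1. There was 1 library of untreated cells for each strain and 1 of cells given 1,10-phenanthroline, a metal chelator used to stop transcription, at 100 µg/ml for 30 min at 30 °C. With 1 library per strain and treatment, the 4 strains served as the replicates of each group, and all carried the same auxotrophic deletions and the bar1 disruption.

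The deposited values were nucleosome calls with a centre, or dyad, and a score between 0 and 1. Untreated libraries held 72649 to 73456 nuclear calls and treated ones 74442 to 75086, and the number of reads behind them is unknown. Of the deleted genes, MET17 (the MET15 locus) and URA3 had 0 calls in all 8 libraries. The strain labels did not match the insertions: coordinates stepped by 78.5 to 83 bp in 16 of 64 pairs of a library and an insertion site, and 0 of the 16 were in the strain labelled with that site. The untreated and the treated library of one number stepped at the same sites. The libraries are therefore named by their labels, every position beyond the first site of a chromosome was left out, and no result below compares strains. Genome-wide, class W (well positioned) took 53.0% to 56.8% of untreated calls and 47.5% to 51.5% of treated calls, and the mean score was 0.652 to 0.664 and 0.642 to 0.648. The part of these genome-wide differences in the results below was not tested. The untreated library labelled strain 3 was the closest to the treated ones in the library means and medians of the widths and positions described below, though not at every named region.

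Most tandem regions had a single nucleosome-depleted region for both genes. The depleted region of a gene start was the widest interval between consecutive nucleosomes, dyad to dyad, whose downstream member lay near the start codon, and that of a gene end was the widest interval whose upstream member lay near the stop codon. Among the 2014 regions with both genes in the gene table, these were the same interval in 1150 (57.1%), called shared here, and different intervals in 784 (38.9%), called separate. In the other 80 (3.97%) at least one could not be placed. The classes were set on the calls of all 8 libraries pooled without regard to treatment. The rule takes the widest interval whatever its size. In separate regions the lower quartile of untreated widths was 178 bp on the start side and 174.75 bp on the end side. Most calls span 147 bp, so such an interval is called depleted here only by the rule. In shared regions the terminal nucleosome of the upstream gene and the +1 nucleosome of the downstream gene faced each other, and no consensus nucleosome called in 4 or more libraries lay between them.

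**Figure D1:**
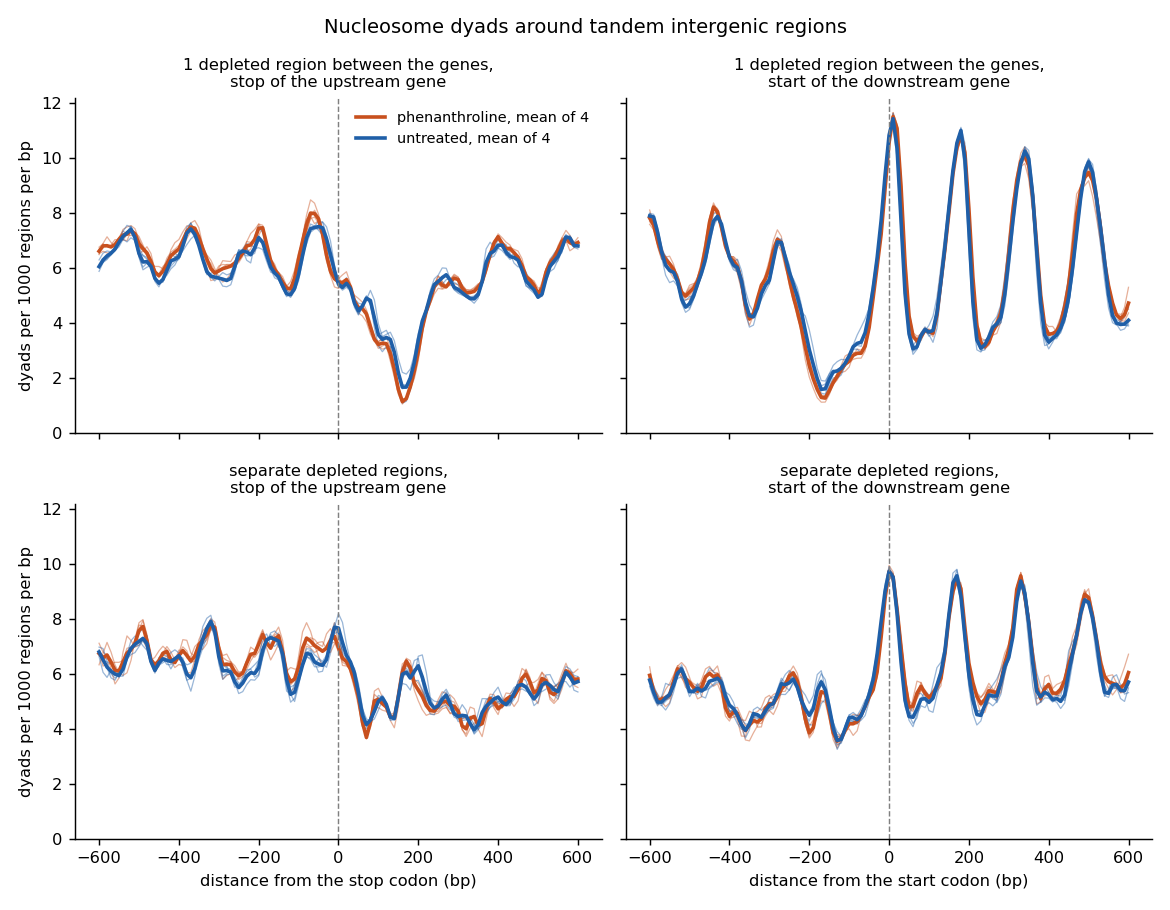
Dyads per 1000 regions and bp, in bins along the distance from the stop codon of the upstream gene (left) and from the start codon of the downstream gene (right), for 1150 shared (top) and 784 separate (bottom) tandem regions; thin lines are the 8 libraries and thick lines the mean of the 4 in each treatment. In shared regions a single trough follows the stop codon and precedes the start codon, and separate regions keep dyads on both sides of shallower troughs. The array downstream of the start codon is the sharpest pattern in the right panels.

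Gap length went with this layout, which the rule for picking intervals partly fixes. The terminal nucleosome could lie at most 150 bp past the stop codon and +1 at most 150 bp before the start codon. A long gap could therefore be shared only across a very wide interval, while in short gaps both searches cover the same nucleosomes. The median tandem gap was 393 bp, with quartiles of 284 and 568 bp, against 484 bp for divergent and 285 bp for convergent gaps. The shared layout took 90.4% of tandem regions of 150 to under 200 bp, 95.1% of those of 250 to under 300 bp, 53.6% of those of 400 to under 500 bp, 14.4% of those of 500 to under 650 bp and 0 of 100 from 1100 bp upward. Untreated gaps of 150 to under 200 bp held 0.438 ± 0.0524 calls (SD, n = 4), those of 300 to under 400 bp held 1.57 ± 0.0422, and the longest class held 6.72 ± 0.122. In the shortest gaps the terminal nucleosome lay inside the upstream gene, at a mean of -46.1 ± 2.45 bp from the stop codon, and +1 lay 17.7 ± 2.55 bp inside the downstream gene. In gaps of 400 to under 500 bp the terminal nucleosome lay 26.1 ± 2.73 bp past the stop codon and +1 lay upstream of the start codon, at -33.7 ± 2.12 bp. The width of the depleted region on the start side, dyad to dyad, was 254 ± 4.61 bp in the shortest class, 271 ± 4.16 bp at 400 to under 500 bp and 239 ± 3.16 bp in the longest.

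**Figure D2:**
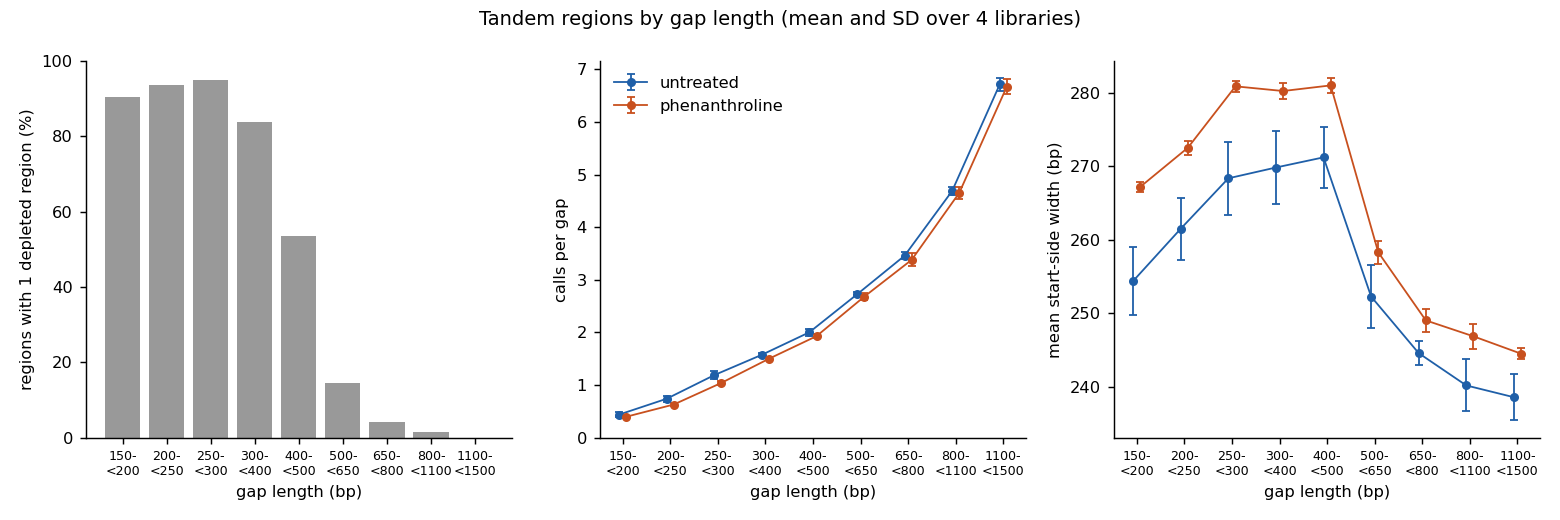
Tandem regions by gap length (bp, classes on the x axis): the percent of regions with 1 depleted region for both genes, the calls per gap, and the mean start-side width in bp, with points and bars for the mean and SD of 4 libraries. The shared layout falls from 95.1% at 250 to under 300 bp to 0 at 1100 bp and more, a fall that the picking rule partly fixes. The treated mean width is above the untreated one in each of the 9 classes.

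The limits on gap length cut through a continuous range of lengths, though start-side width differed across the lower limit. In untreated libraries the 44 tandem gaps of 100 to under 150 bp held 0.506 ± 0.0218 calls (SD, n = 4) and had a start-side width of 232 ± 3.67 bp, beside the values above for those of 150 to under 200 bp. The 62 gaps of 1500 to under 2000 bp held 8.90 ± 0.157 calls against 7.48 ± 0.138 in the 44 of 1300 to under 1500 bp, with widths of 250 ± 2.07 and 253 ± 1.99 bp.

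The depleted regions of tandem genes were wider after phenanthroline on both sides. Over the 1778 regions with -1 and +1 called in all libraries, the median start-side width of the untreated libraries labelled strains 1 to 4 was 258, 254.75, 265 and 258 bp, and of the treated ones 270, 270, 270 and 272 bp. Every treated library was above every untreated one. The means were 258.9 ± 4.32 and 270.5 ± 1.00 bp (SD, n = 4 each), a difference of 11.6 bp with an exact permutation p of 0.0286 and a Benjamini-Hochberg adjusted p of 0.0413 over 13 measures. Each strain label showed it, by 5 to 15.25 bp. The exact p of 0.0286 is the smallest that 4 against 4 libraries allow. With the strain label as a block, by flipping the signs of the 4 within-strain differences, no p can be below 0.125, and this and each of the other 8 measures called below had that p.

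The end side moved alike. Over 1733 regions, the median end-side width was 256, 254, 263 and 256 bp in the untreated libraries labelled strains 1 to 4, and 268, 268, 268 and 270 bp in the treated ones. The groups did not overlap, and the difference of 11.25 bp had an adjusted p of 0.0413 (exact permutation test). The start side widened by 0.219 bp more than the end side on the mean, and that difference had an exact permutation p of 0.657 (adjusted p = 0.789 over 6 differences). In shared regions both sides are the same interval, so the 2 widths are not independent.

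The terminal nucleosome of the upstream gene lay further into the gene after treatment. Its mean position over 1840 regions was 10.4, 11.8, 6.02 and 10.1 bp past the stop codon in the untreated libraries labelled strains 1 to 4, and 2.17, 2.84, 3.22 and 3.51 bp in the treated ones. All 4 treated libraries were below all untreated ones, and the mean changed by -6.65 bp (exact permutation p = 0.0286, adjusted p = 0.0413). The +1 nucleosome of the downstream gene lay at -14.0, -16.1, -10.0 and -13.9 bp from the start codon in untreated libraries and at -8.62, -10.4, -8.70 and -8.50 bp in treated ones. Here the groups overlapped, since the treated library labelled strain 2 lay upstream of the untreated one labelled strain 3, and the downstream difference of 4.48 bp did not pass (exact permutation p = 0.0571, adjusted p = 0.0743). Without the untreated library labelled strain 3 it was 5.65 bp, with an adjusted p of 0.0413 in the exact permutation test. The distance from terminal to +1 grew from 440.7 ± 5.06 to 451.9 ± 0.939 bp (SD, n = 4), or by 11.2 bp (adjusted p = 0.0413, exact permutation test), in all 4 strain labels. When the nucleosomes were picked from each library's own calls rather than from the consensus map, this growth was 5.93 bp and did not pass.

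**Figure D3:**
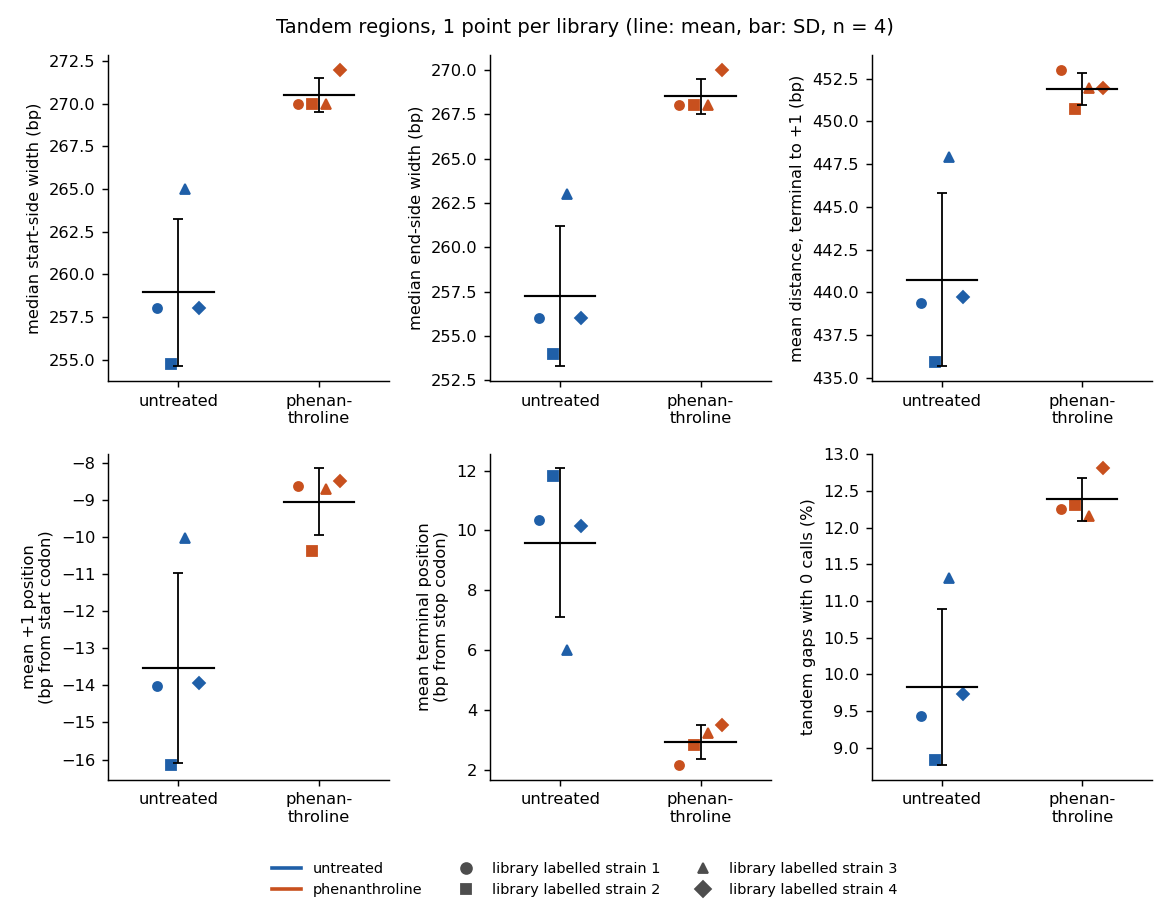
Tandem regions in each of the 8 libraries: median widths on the start and end side (bp), mean distance from terminal to +1 (bp), mean +1 and terminal positions (bp from the start and stop codon) and the percent of gaps with 0 calls; each point is 1 library, the line is the mean and the bar the SD of 4. Treated and untreated libraries separate in all panels but that of +1, and the untreated library labelled strain 3 lies nearest to the treated ones in each.

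In shared regions the 2 facing nucleosomes moved apart on average. These splits by layout were added after seeing the data, with adjustment over 31 such measures. Over 1066 shared regions the mean width went from 275.5 ± 4.93 to 287.2 ± 0.911 bp, by 11.7 bp, with +1 moving by 4.77 bp downstream and the terminal nucleosome by -6.95 bp, into the upstream gene. All 3 had an adjusted p of 0.0369 (exact permutation test) and no overlap between treatments. In separate regions the start side widened by 5.94 bp and the end side by 5.12 bp (adjusted p = 0.0369, exact permutation test). Start-side width grew by 5.77 bp more in shared than in separate regions, and end-side width by 6.60 bp more (both exact permutation p = 0.0286, adjusted p = 0.0369).

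At the ends of upstream genes in separate regions, the nucleosome on the gene side moved further than its neighbour in the gap. The terminal nucleosome moved by -5.89 bp, from -1.62 ± 2.64 to -7.51 ± 0.543 bp (SD, n = 4), while the next nucleosome stayed between 219.3 and 222.2 bp from the stop codon in all 8 libraries and differed by -1.08 bp (exact permutation p = 0.143). The shift of the gene-side nucleosome away from the depleted region exceeded that of its gap-side neighbour by 6.98 bp (exact permutation p = 0.0286, adjusted p = 0.0369). At the starts of downstream genes, -1 moved by -1.83 bp (adjusted p = 0.0369, exact permutation test) and +1 by 4.01 bp (exact permutation p = 0.0571), and the excess of the gene-side shift was 2.18 bp (exact permutation p = 0.200). Between the 2 depleted regions, the distance from the nucleosome after the terminal one to -1 was 383 ± 1.59 and 382 ± 0.424 bp, a difference of -1.27 bp (exact permutation p = 0.143).

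Region by region, most tandem genes followed the same direction. In limma fits over all genes of the kept gaps, 470 of 1778 tandem regions had a wider start side and 26 a narrower one at an adjusted p below 0.05, where 24.4% and 1.86% of all 4139 genes tested were wider and narrower. The median difference was 8.25 bp in tandem regions and 7.25 bp in all genes. On the end side 225 of 1733 tandem regions were wider and 13 narrower, against 10.4% and 0.811% of all 3697 genes tested. The distance from terminal to +1 was longer in 450 and shorter in 22 of 1766 tandem regions, against 23.4% and 1.27% of all gaps of the 3 orientations. With the strain label as a block, limma called 37 start sides, 25 end sides and 45 distances in either direction, in place of 496, 238 and 472, which compare with 26.2%, 11.2% and 24.7% of all tested. These shares are from the fit without the block. With the block, these measures were counted for tandem regions only.

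The calls on single nucleosomes were split in the same way. The +1 nucleosome was called downstream of its untreated position in 309 tandem regions and upstream in 38, against 18.6% and 1.86% of all genes tested. The terminal nucleosome was called upstream, into its gene, in 211 and downstream in 13, against 9.14% and 1% of all genes. With the strain block, limma called 5 and 12 regions in place of 347 and 224, which compare with 20.4% and 10.1% of all tested. Those shares too are from the fit without the block. The shared layout held 359 of the 470 start sides that were wider, and these were 359 of 1066 shared regions tested against 105 of 682 separate ones.

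These counts depended on single libraries. Leaving out 1 library at a time, limma called between 94 and 763 start-side widths, 32 and 602 +1 positions, 31 and 424 end-side widths, 64 and 387 terminal positions and 91 and 750 distances. In each of these 5 measures the highest count was the one without the untreated library labelled strain 3, and the lowest the one without the untreated library labelled strain 1. Leaving out any of the other 6 libraries gave fewer calls by more than 1.5 times in all 5 measures. At an unadjusted p below 0.05, limma had 821 of 1778 tandem start sides, against 1838 of all 4139 tested. On the end side it had 700 of 1733, against 1209 of all 3697 tested. With the strain block these counts were made for tandem regions only, with 771 start sides and 593 end sides.

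Widening differed among regions. Untreated start-side widths had quartiles of 213 and 287 bp around a median of 259 bp. The difference between treatments ran from -4.83 bp at the lower decile to 27.3 bp at the upper decile, and 1402 of 1778 regions (78.9%) had a higher treated mean. The share with a higher mean was 87.1% in shared and 66.4% in separate regions. By strand of the pair, start sides grew by 9.28 bp on the Watson and 9.52 bp on the Crick strand, and terminal nucleosomes changed by -6.58 and -6.72 bp.

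Of the upstream gene ends, the terminal nucleosome of ADE57, a bifunctional enzyme of purine synthesis, had the smallest adjusted p among the named positions. The ADE57–SEC15 gap spans 231 bp on chromosome VII (58891 to 59121). The terminal dyad lay at -24, -17, -15 and -15 bp from the ADE57 stop codon in the untreated libraries labelled strains 1 to 4, and at -66, -62, -65 and -65 bp in the treated ones. The groups were separated by more than their spread, and the difference of -46.75 ± 2.46 bp (SE) had an adjusted p of 0.000209 in limma and 0.0155 with the strain block. No call lay in this gap in any of the 8 libraries. SEC15, the downstream gene, encodes an exocyst subunit.

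Among the 211 terminal nucleosomes called further into the gene, FAT3, YML054C-A and LDB16 were the others named by size of shift. At FAT3, upstream of the peroxisomal transporter gene PXA2, the position went from 158 ± 10.8 to 109.5 ± 3.70 bp past the stop codon (SD, n = 4), and the untreated library labelled strain 3, at 142 bp, was the nearest to the treated range of 105 to 114 bp. The limma adjusted p was 0.00581, and 0.0543 with the strain block. At LDB16, which encodes a lipid-droplet protein, it went from 62.75 ± 15 to 19.1 ± 16.3 bp, and the treated library labelled strain 2, at 43.5 bp, reached the level of the lowest untreated one, at 44 bp (limma adjusted p = 0.0363, or 0.0994 with the strain block). PGS1, downstream of LDB16, encodes an enzyme of phosphatidylglycerol synthesis. The LDB16–PGS1 call held in 2 of 8 limma refits that left out 1 library each, and the FAT3–PXA2 call held in all 8.

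Of the 13 terminal nucleosomes called in the other direction, towards the gap, the 4 named by size were those of KTR2, EMG1, YER175W-A and MAE1. At EMG1, a methyltransferase needed for ribosome assembly, the terminal dyad lay at 4, 8, -5 and 16 bp in untreated libraries and at 46, 46, 39 and 43 bp in treated ones. The groups did not overlap, the limma adjusted p was 0.00628, and 0.0416 with the strain block. The end-side width at EMG1 fell by 36.5 bp, from 288.75 ± 8.77 to 252.25 ± 3.86 bp (limma adjusted p = 0.00949). At KTR2, a mannosyltransferase gene, the terminal nucleosome went from -182 ± 15.3 to -140.0 ± 7.36 bp and the width from 218 ± 12.6 to 179 ± 11.4 bp (limma adjusted p = 0.022 and 0.0257, or 0.057 and 0.0549 with the strain block). The terminal call at KTR2 was lost without the untreated library labelled strain 1 (adjusted p = 0.0542) and without the treated ones labelled strain 1 or 2 (0.057 and 0.0528). Its width call held in 2 of 8 refits that left out 1 library each.

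The other 2 changed by less. The terminal nucleosome of YER175W-A went from 86 ± 4.55 to 123 ± 19.4 bp, with the treated library labelled strain 4 at 94 bp, close to the untreated range of 82 to 92 bp. That of MAE1, the mitochondrial malic enzyme, went from -117 ± 3.30 to -87.75 ± 13.1 bp. Their limma adjusted p values were 0.0422 and 0.0282, and 0.111 and 0.0938 with the strain block. These calls held in 1 and 2 of 8 refits that left out 1 library each.

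**Figure D4:**
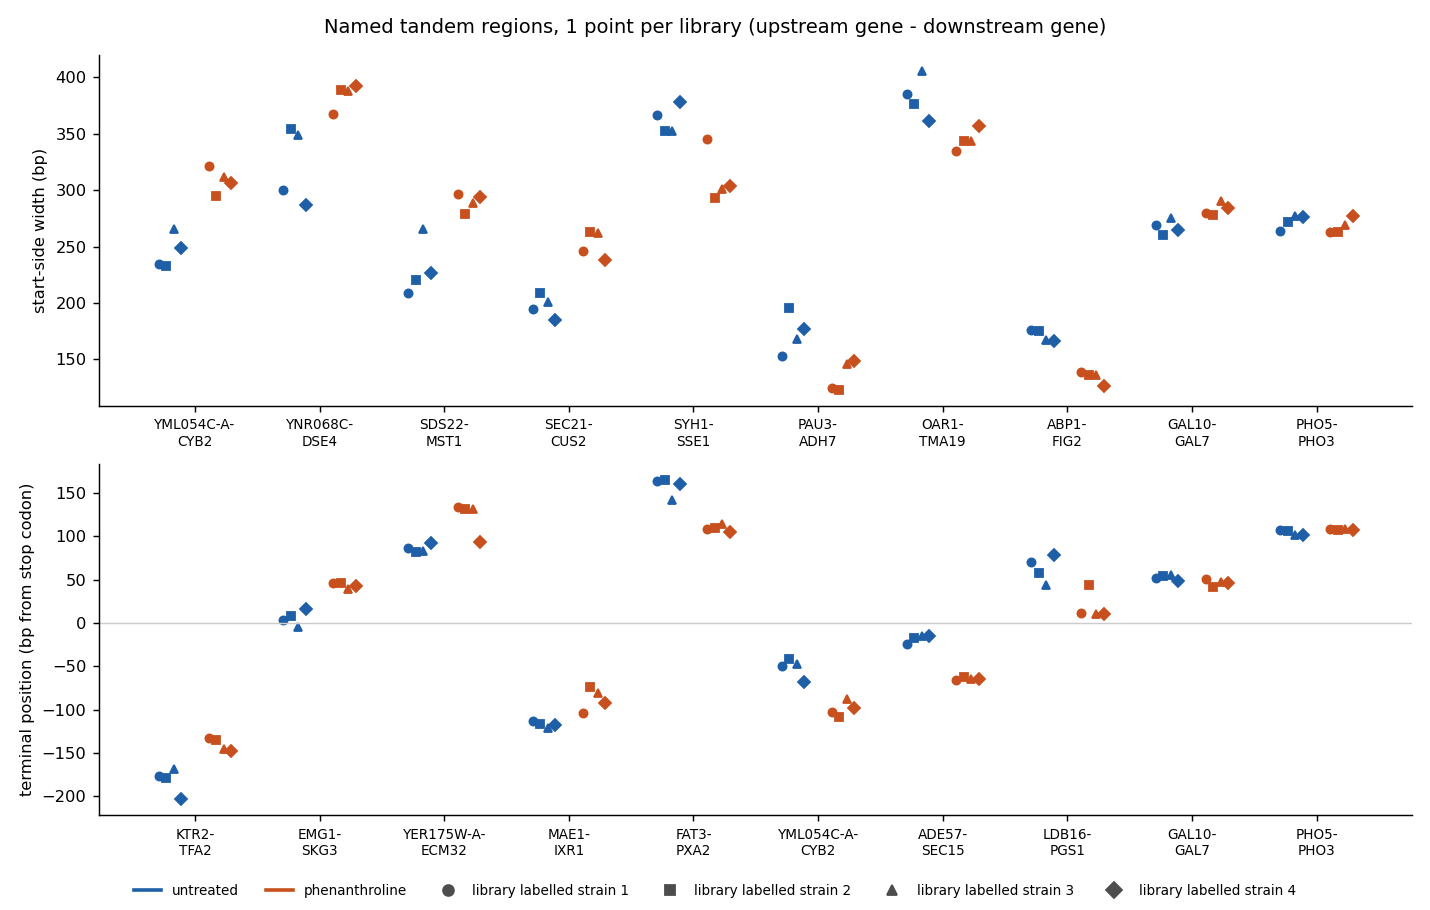
Start-side width (bp, top) and terminal position (bp from the stop codon, bottom) in each library for the tandem regions named by size of change and for GAL10-GAL7 and PHO5-PHO3; marker shapes are the strain labels. The treated terminal nucleosomes of ADE57 lie between -66 and -62 bp, all below the untreated ones, while those of PHO5 lie at 107 to 109 bp beside untreated ones at 102 to 107 bp.

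The end side of DUS3, a tRNA dihydrouridine synthase gene upstream of the bromodomain gene BDF1, widened in each library. It measured 328, 316, 308.5 and 308 bp untreated and 376, 362, 381 and 378 bp treated. No treated library overlapped the untreated ones, and the difference of 59.1 ± 5.98 bp (SE) had a limma adjusted p of 0.00541, or 0.0445 with the strain block. ICY1 followed with 209 ± 24.9 and 266 ± 5.93 bp (limma adjusted p = 0.0281, or 0.0708 with the block), and among calls of score 0.4 or more this difference was 36.9 bp and did not pass. YPL088W narrowed from 204 ± 22.6 to 152.5 ± 14.6 bp (limma adjusted p = 0.037, or 0.0845 with the block). The ICY1 call held in 2 and the YPL088W call in 1 of 8 refits that left out 1 library each.

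The largest called widening was that of the shared region YML054C-A–CYB2, on chromosome XIII (167309 to 167622). CYB2 encodes the lactate dehydrogenase cytochrome b2. Its depleted region measured 234.5, 233, 265.5 and 249 bp in the untreated libraries labelled strains 1 to 4, and 321, 295, 312 and 306 bp in the treated ones. All treated widths exceeded all untreated ones, by 63.0 ± 8.33 bp (SE) on the mean, with a limma adjusted p of 0.00779, or 0.0483 with the strain block. The wider interval did not go with fewer calls in the gap. It held 1, 1, 2 and 2 calls in the untreated libraries, with mean scores of 0.764, 0.714, 0.628 and 0.518. In the treated ones it held 4, 2, 3 and 2, with mean scores of 0.430, 0.486, 0.484 and 0.607. The terminal nucleosome of YML054C-A went from -51.75 ± 11.3 to -99.5 ± 8.89 bp, by -47.75 bp, and the rest of the widening lay on the side of the CYB2 +1. Since YML054C-A is a short gene, that terminal nucleosome was also its +1, which went from 106.25 to 58.5 bp in the region YML053C–YML054C-A, so the 2 values are 1 measurement (limma adjusted p = 0.0107 and 0.012, or 0.057 and 0.0513 with the block).

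Of the other downstream starts, SEC21–CUS2 and SDS22–MST1 widened as shared regions and YNR068C–DSE4 as a separate one. At CUS2, a splicing factor gene, the width was 195, 209, 201 and 185 bp untreated and 246, 263, 262 and 238.5 bp treated. The groups were far apart, with a limma adjusted p of 0.00779, or 0.0199 with the strain block. At MST1, the mitochondrial threonyl-tRNA synthetase, it went from 230.5 ± 24.8 to 289.75 ± 7.89 bp (limma adjusted p = 0.0183, or 0.0513 with the block), and the call was lost without the untreated library labelled strain 1 or 4 (limma adjusted p = 0.0508 and 0.0543). At DSE4, a glucanase that acts in daughter-cell separation, it went from 322 ± 33.8 to 384 ± 11.2 bp (limma adjusted p = 0.0297, or 0.0534 with the block), and the call held in 2 of 8 refits that left out 1 library each.

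The named starts that narrowed were those of SSE1, ADH7, TMA19 and FIG2. At SSE1, an Hsp110 chaperone, the start side measured 367, 352, 352 and 378 bp untreated and 345, 293, 301 and 304 bp treated, so that the treated library labelled strain 1 came close to the untreated range. Its +1 lay at -24.75 ± 13.4 bp untreated and -72.5 ± 22 bp treated, further from the start codon. The limma adjusted p was 0.0249 for the width and 0.03 for +1, or 0.0512 and 0.0513 with the strain block, and these calls held in 3 and 2 of 8 refits that left out 1 library each.

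FIG2, which encodes a cell wall protein of mating cells, had a start-side width of 176, 175, 167 and 166 bp untreated and 139, 136, 136.5 and 126 bp treated. The limma adjusted p was 0.00508, or 0.0239 with the strain block. With calls of score 0.4 or more only, the sign turned, to 20.5 bp. TMA19, a conserved translation-associated protein, went from 382 ± 18.8 to 345 ± 9.06 bp, and ADH7, an alcohol dehydrogenase, from 173.5 ± 18 to 135.75 ± 13.6 bp (limma adjusted p = 0.0292 and 0.0331, or 0.068 and 0.0625 with the block). Both calls held in 2 of 8 refits that left out 1 library each. The OAR1–TMA19 gap held 1 call in each untreated library, with a score of 0.533 to 0.708. In each treated library it held 2, with a mean score of 0.354 to 0.402. The treated widths at FIG2 and the treated mean at ADH7 were below 147 bp, the span of most calls. There the bordering calls overlap, so these intervals are not depleted regions.

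The +1 nucleosomes that moved furthest downstream were those of BAP2, VPS20, ALD3 and PFA4. At BAP2, a permease for branched-chain amino acids that follows the permease gene TAT1, +1 lay at -49, -46, -33 and -22.5 bp from the start codon untreated and at 12, 42.5, 6 and 7 bp treated. All treated dyads were inside the coding sequence and all untreated ones upstream of it (limma adjusted p = 0.0175, or 0.0569 with the strain block). Without the untreated library labelled strain 1 the limma adjusted p at BAP2 was 0.0561.

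At VPS20, an ESCRT-III subunit, +1 lay at -51, -55, -28 and -30 bp untreated and at 1, 2, 6 and 7 bp treated. Each untreated library had 2 calls in the CTF18–VPS20 gap, +1 among them. Each treated one had 1, with its +1 past the start codon (limma adjusted p for +1 = 0.0125, or 0.0513 with the strain block). At ALD3, an aldehyde dehydrogenase downstream of its neighbour ALD2, +1 went from -99.0 ± 12.8 to -57.0 ± 10.2 bp (limma adjusted p = 0.0175, or 0.0361 with the block), and the call was lost without the untreated library labelled strain 1 or 4 (0.0565 and 0.0503). ALD2 and ALD3 are close copies, so how their reads were divided is uncertain. PFA4 went from 1.63 ± 24.7 to 43.5 ± 1.91 bp, with the untreated library labelled strain 3 at 36 bp (limma adjusted p = 0.0372, or 0.0605 with the block). The PFA4 call held in 1 of 8 refits that left out 1 library each.

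Of the 38 +1 nucleosomes called upstream of their untreated position, the 4 with the largest shifts were those of SSE1, YML054C-A, PEP4 and YBR137W. At PEP4, the vacuolar proteinase A gene downstream of the checkpoint kinase gene RAD53, the dyad taken as +1 lay at 118, 101, 100 and 108 bp untreated and at 86, 59, 51 and 59.5 bp treated (limma adjusted p = 0.0195, or 0.0468 with the strain block). Without the untreated library labelled strain 1 or 4 the limma adjusted p was 0.0573 and 0.0532, and with calls of score 0.4 or more the sign turned, to 27.9 bp. At YBR137W it went from -61.5 ± 18.7 to -97.5 ± 4.43 bp (limma adjusted p = 0.0299, or 0.0543 with the block). This call held in 2 of 8 refits that left out 1 library each. The MEC1–YBR137W gap held 1 call in each untreated library, with a score of 0.593 to 0.700. It held 2, 1, 2 and 3 calls in the treated ones, with mean scores of 0.351 to 0.460.

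GAL10–GAL7 and PHO5–PHO3 are textbook same-strand neighbours, the first of galactose metabolism and the second of acid phosphatases, and are given whatever they show. GAL10–GAL7, on chromosome II (275528 to 276252), was separate, with a start-side width at GAL7 of 269, 260, 275 and 265 bp untreated and 280, 278, 290 and 284 bp treated. The groups did not overlap, and the widening of 15.75 ± 3.99 bp (SE) had a limma adjusted p of 0.0297, or 0.0512 with the strain block, and held in 2 of 8 refits that left out 1 library each. The GAL7 +1 moved by 8.25 bp downstream (limma adjusted p = 0.0437, or 0.0605 with the block), a call that held in 1 of 8 such refits. The end side at GAL10 measured 161 ± 5.91 and 165.5 ± 2.89 bp (limma adjusted p = 0.408). PHO5–PHO3, on chromosome II (429102 to 429547), was shared, with widths of 264, 272, 277 and 276 bp untreated and 263, 263, 269 and 277 bp treated. These ranges overlapped, and no measure of this region passed in limma (smallest adjusted p = 0.204). PHO5 and PHO3 are related copies, and how reads were divided between them is not known.

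Calls inside the gaps lost score. The score is the mean of a width component, which is high where fragments centre on one place, and a height component, which follows coverage, so a lower score can come from either. The mean score in tandem gaps was 0.742, 0.725, 0.717 and 0.723 in the untreated libraries labelled strains 1 to 4, and 0.658, 0.690, 0.661 and 0.655 in the treated ones. No treated library reached an untreated one, and the change of -0.0606 had an adjusted p of 0.0413 (exact permutation test). Class W took 69.9 ± 2.25% of gap calls untreated and 62.6 ± 2.76% treated (SD, n = 4, adjusted p = 0.0413, exact permutation test). At downstream gene starts the mean score went from 0.810 ± 0.00661 to 0.795 ± 0.00714 (adjusted p = 0.0413), and at upstream gene ends from 0.739 ± 0.00891 to 0.720 ± 0.0144, with overlapping groups (exact permutation p = 0.0857). Class W went from 74.3 ± 1.69% to 68.7 ± 2% at upstream ends and from 84.8 ± 0.842% to 82.6 ± 1.19% at downstream starts, in both without overlap (adjusted p = 0.0413, exact permutation test).

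The loss in the gap exceeded the loss in the genes on either side. In measures added after seeing the data, the change of the gap score differed by -0.0415 from that of upstream ends and by -0.0454 from that of downstream starts (both exact permutation p = 0.0286, adjusted p = 0.0369). The height component in gaps went from 0.780 ± 0.0171 to 0.666 ± 0.0266 (exact permutation p = 0.0286, adjusted p = 0.0369) and the width component from 0.673 ± 0.0114 to 0.667 ± 0.014 (exact permutation p = 0.543). Scores are relative within a library. With each library's median score subtracted, the gap changed by -0.0367, which did not pass, and the ends and starts turned to 0.00477 and 0.00872.

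The mean score of each kind of nucleosome that borders or fills the gap was lower after treatment. In separate regions the mean changed by -0.0436 at the terminal nucleosome, -0.0754 at the next one, -0.0497 at those between, -0.0634 at -1 and -0.0309 at +1. In shared regions the change was -0.0646 at the terminal nucleosome and -0.0327 at +1. Each of these 7 changes had no overlap between treatments and an adjusted p of 0.0369 (exact permutation test). The +1 nucleosome of shared regions had the highest mean of the 7 in both treatments, 0.857 ± 0.0101 untreated and 0.825 ± 0.0082 treated (SD, n = 4).

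**Figure D5:**
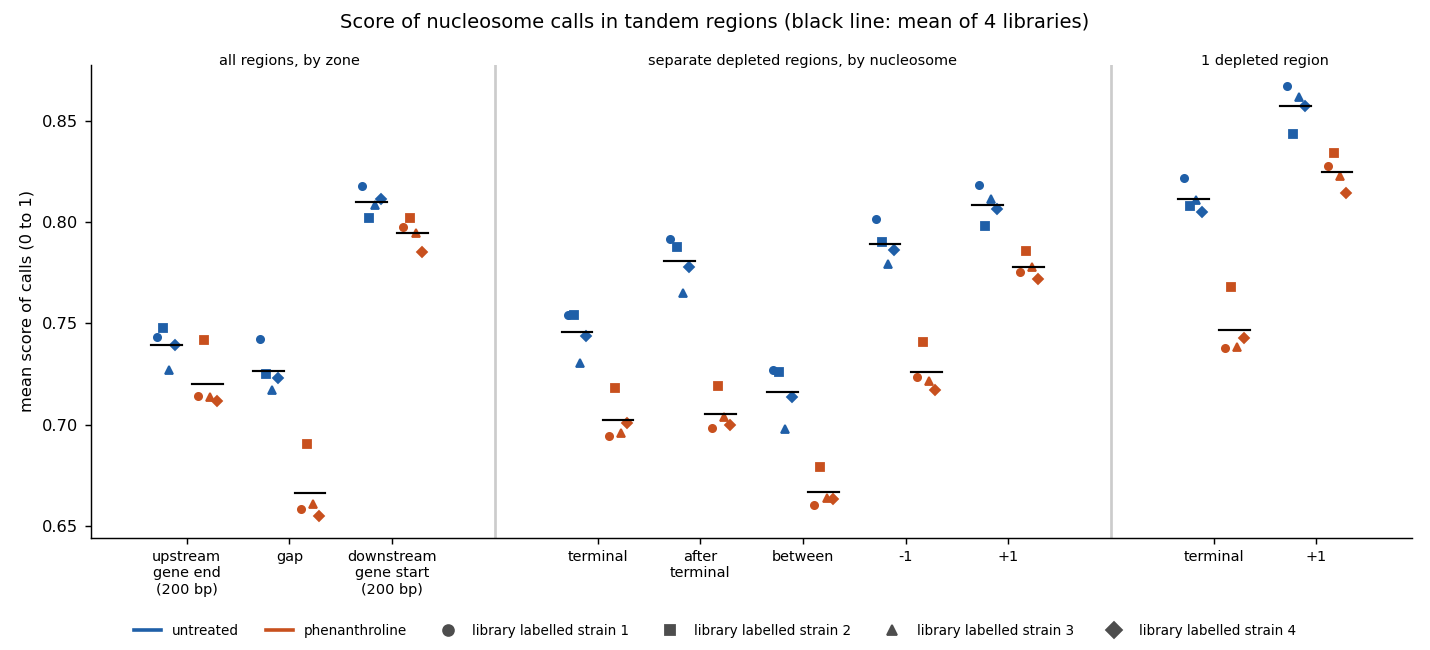
Mean score of calls (0 to 1) in tandem regions, with 1 point per library and a black line for the mean of 4: by zone over all regions, then by nucleosome in separate and in shared regions. The 2 treatments separate in every column but the upstream gene end, and the largest fall among the named nucleosomes is that of the one after the terminal nucleosome, from 0.781 to 0.705.

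Nucleosome by nucleosome, 797 of 8495 tandem consensus nucleosomes called in all libraries scored lower and 113 higher in limma at an adjusted p below 0.05, against 5.67% and 2.9% of all 47450 tested. By zone, 583 of 3662 in gaps were lower and 20 higher, 117 of 2300 in upstream ends were lower and 58 higher, and 97 of 2533 in downstream starts were lower and 35 higher. With the median of each library subtracted, 418 in the gap were lower and 53 higher (11.4% and 1.45%), where 3.63% and 4.60% of all tested were lower and higher. Upstream ends then held 70 lower and 94 higher calls (3.04% and 4.09%), near those shares, and downstream starts 67 and 68 (2.65% and 2.68%). Over all tandem zones the split became 555 lower and 215 higher. With the strain block the gap held 456 lower and 10 higher calls (12.5% and 0.273%), where 4.32% and 2.18% of all tested were lower and higher. Using the width component alone, limma called 371 tandem nucleosomes (4.37%) against 3.53% of all tested, in place of 910 (10.7%) against 8.57%. Leaving out 1 library gave 372 to 918 calls, with 372 and 475 without the untreated libraries labelled strains 1 and 4, and 584 and 593 without the treated ones labelled strains 1 and 3.

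Dyads of single consensus nucleosomes were called moved in 150 of the 8495 in tandem regions, against 1.14% of all tested, with 80 at a higher and 70 at a lower coordinate (0.592% and 0.552% of all). Signed in the direction of transcription, 54 of the 58 called in upstream gene ends lay further upstream after treatment, and 14 of the 21 called in downstream starts lay further downstream. In gaps, 32 of 71 lay downstream and 39 upstream. With the strain block limma called 0 of 8495, where 2168 had an unadjusted p below 0.05. Without the block 2385 had one, against 10233 of all 47450 tested. Blocked counts of dyads were made for tandem regions only. Leaving out 1 library gave 32 to 567 calls, the lowest without the untreated library labelled strain 1 and the highest without the one labelled strain 3. The others past 1.5 times fewer were those without the untreated library labelled strain 4 (34) and without the treated ones labelled strains 1 to 4 (58, 71, 53 and 69).

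The share of all nuclear calls that lay in tandem gaps was smaller after phenanthroline, while the number of calls in the flanks and in the genome was larger. Among measures added after seeing the data, their share of nuclear calls was 6.06%, 6.24%, 5.94% and 6.10% in the untreated libraries labelled strains 1 to 4, and 5.80%, 5.57%, 5.78% and 5.78% in the treated ones. The gaps held 4327 to 4586 calls untreated and 4152 to 4340 treated, which overlap. The upstream ends held 2526 to 2537 and 2598 to 2654 calls, and the downstream starts 2659 to 2696 and 2729 to 2777, without overlap. Gaps with 0 calls rose from 9.83 ± 1.06% to 12.4 ± 0.288% (SD, n = 4). This percent and the share of calls had no overlap and an adjusted p of 0.0369 (exact permutation test). The number of calls per gap, 2.20 ± 0.0543 untreated and 2.13 ± 0.0441 treated, did not pass, with overlapping groups (exact permutation p = 0.0857), and a difference of -0.176 did pass once calls scoring below 0.4 were left out. The percent of regions with no call between terminal and +1 was 56.1 ± 1.65% and 56.3 ± 1.98% (exact permutation p = 0.943). The gap ends at the codons, near which the terminal and +1 nucleosomes lie on average. A dyad that moves outward across a codon passes from the gap to a flank. The counts of gap and flank calls, and the mean scores by zone, are therefore not independent of the shifts described above. The part of these shifts in them was not tested.

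Few nucleosomes appeared or vanished outright. Of the 83 consensus nucleosomes called in all 4 untreated and 0 treated libraries, 25 (30.1%) lay in tandem gaps, and of the 70 called in all treated and 0 untreated ones, 9 (12.9%), where tandem gaps held 7.99% of all consensus nucleosomes. The lost ones with the highest mean scores lay upstream of MIT1, a transcription factor of filamentous growth (0.693, at -278 bp from the start codon), of SPO24 (0.570, at -63 bp) and of OCA1 (0.568, at -260 bp, and 59 bp past the stop codon of RAS2). The gained ones lay between HTZ1, which encodes the histone variant H2A.Z, and the ubiquitin ligase gene HRD1 (0.420, 91 bp past the HTZ1 stop codon), upstream of the cyclin gene PCL1 (0.405, at -297 bp) and upstream of UIP4 (0.365, at -49 bp). The mean score was 0.407 for all lost and 0.365 for all gained nucleosomes, against 0.675 for the whole consensus map.

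The levels at tandem starts and ends lay apart from those of other gaps. The mean start-side width was lower in tandem than in divergent genes in each of 8 libraries, with differences of -12.1 to -9.17 bp, and the mean end-side width was higher than in convergent genes by 54.1 to 60.3 bp. The 8 libraries come from 4 strains, so these levels are given without a test. The tandem terminal nucleosome lay 21.3 ± 1.56 bp further downstream than the convergent one (SD over 8 libraries). Convergent gaps were the shorter ones, and their length was not matched here. The score in tandem gaps was 0.0333 ± 0.023 below that at upstream ends and 0.106 ± 0.0261 below that at downstream starts.

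The treatment widened the mean start side by 9.40 bp in tandem and 7.35 bp in divergent genes, and the excess of 2.06 bp had an exact permutation p of 0.0286 but an adjusted p of 0.171 over 6 differences. The end side grew by 9.19 bp in tandem and 7.46 bp in convergent genes (exact permutation p of the difference = 0.286), and by each library's own calls that difference turned to -6.86 bp. The terminal nucleosome differed in its change by -1.83 bp (exact permutation p = 0.114) and +1 by 0.0722 bp (exact permutation p = 0.83). The gap score fell by 0.0106 more in tandem than in divergent gaps (exact permutation p = 0.0286, adjusted p = 0.0369 among the added measures) and differed by -0.00924 from convergent gaps (exact permutation p = 0.4).

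Of the gene lists, cytosolic ribosomal protein genes had the widest starts. There were 52 tandem regions with such a gene downstream, 35 of which could be tested, and their median untreated start-side width was 379.25 bp against 259 bp in all tandem regions. In limma 10 of the 35 were wider and 0 narrower, where 24.4% and 1.86% of all genes tested were, with a median difference of 7.75 bp against 8.25 bp in all tandem regions. Of the 35, 12 had +1 further downstream and 0 upstream, against 18.6% and 1.86% of all genes. RPL6A had 499 and 536.5 bp (adjusted p = 0.0328, limma) and RPL36B had 392 and 428 bp (adjusted p = 0.0349, limma). At the ends of ribosomal protein genes, 3 of 40 were wider and 2 narrower, against 10.4% and 0.811% of all genes tested, and RPL9B, one of the 3, had 430.0 and 471 bp (adjusted p = 0.0019, limma). Most ribosomal protein genes have near-identical copies, so their calls are uncertain.

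In the mitochondrial ribosome and proteasome lists, limma called some starts wider and 0 narrower, where 1.86% of all genes tested were narrower and 24.4% wider. Of 21 mitochondrial ribosomal genes, 9 were wider, among them RSM23 with 239 and 286 bp (adjusted p = 0.0377) and MRP2 with 277 and 292 bp (adjusted p = 0.0095), and the list's median difference was 7.25 bp. Of 7 proteasome genes, 5 were wider, with a median difference of 12.75 bp, among them RPN1, a base subunit, with 281.5 and 309.5 bp (adjusted p = 0.0114). At proteasome gene ends 3 of 11 were wider and 0 narrower, against 10.4% and 0.811% of all genes tested, with a median of 18.25 bp against 8 bp in all tandem regions. RPT6, a base ATPase, was one of the 3, and its terminal nucleosome went from 95 to 69.25 bp past the stop codon (adjusted p = 0.0173).

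Few chaperone and glycolytic genes could be tested. Of 11 chaperone starts 0 were wider and 1, that of SSE1, was narrower in limma, where 24.4% and 1.86% of all genes tested were, with a median difference of 3.5 bp. Their +1 was called downstream at HSP26, a small heat shock protein, from 20.75 to 55.75 bp (adjusted p = 0.0224), and upstream at SSE1 and at HSP104, a disaggregase, from -99.5 to -120.5 bp (adjusted p = 0.0424). Of 4 glycolytic starts that could be tested, PDC5, a pyruvate decarboxylase with close copies, was narrower, at 176 and 162.5 bp (adjusted p = 0.0183). At the ends of 6 glycolytic genes, the terminal nucleosome of PFK2, a phosphofructokinase subunit, went from -49 to -63.75 bp (adjusted p = 0.0195).

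Among genes of mating and G1 arrest, the state in which the cells were held, 2 of 13 starts were wider and 0 narrower in limma, where 24.4% and 1.86% of all genes tested were, with a median difference of 5.5 bp. The 13 include BAR1, which the genotype gives as disrupted in all strains. They were AGA2, an agglutinin subunit, with 286.25 and 330.0 bp (adjusted p = 0.0218), and the mating kinase gene KSS1, with 193.25 and 212.5 bp (adjusted p = 0.0224). Their median untreated +1 position was -89.75 bp against -7.13 bp in all tandem regions. At the end of GPA1, the G protein alpha subunit of the pheromone pathway, the width went from 238 to 278.75 bp and the terminal nucleosome from 75.25 to 35.75 bp (adjusted p = 0.0271 and 0.0155). The counts of these lists are descriptions, since they were not tested as sets.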

How the data were processed

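Nucleosome calls of 8 MNase-seq libraries were analysed, 4 untreated and 4 treated with phenanthroline, grouped by the treatment label with the strain number as the replicate. Per the labels' protocols, semi-intact cells were digested to about 80% mononucleosomes and sequenced as pairs of 75 bp reads. Per the file columns, the authors called nucleosomes with nucleR in each library on its own, on sacCer3 per the submitters' processing notes. Not given in the sources used here are the aligner, the read filters and the caller's version. Each deposited score averages a width and a height score and is relative within its library, between 0 and 1, and the depth of each library is unknown, so no counting interval was given. Calls of class W all had a width score of 0.6 or more and a height score of 0.4 or more.

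The dyad was the centre of a call, and most calls spanned 147 bp. Genes were those of RefSeq's table for assembly R64, which lists coding sequences, so a start is a start codon, and the strand came from the systematic name. On chromosomes IV, VII, VIII, XV and XVI, positions from 1000 bp before the first insertion site onward were dropped. Dyads of all libraries were pooled and smoothed (SD 20 bp), the maxima, 80 bp or more apart, gave 60693 consensus nucleosomes, and calls were assigned within 60 bp. Those called in 4 or more libraries were used. A start-side interval had its downstream member from 150 bp before to 200 bp after the start codon, and an end-side interval had its upstream member from 200 bp before to 150 bp after the stop codon.

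For library measures, an exact two-sided permutation test was made over the 70 splits of 4 against 4, adjusted by Benjamini-Hochberg over 13 measures, over 6 differences, and over 31 measures added after seeing the data. Regions and nucleosomes were fitted with limma 3.58.1 (R 4.3.3) over all genes, gaps or nucleosomes, at an adjusted p below 0.05. These steps were tested on simulated data. The strain number pairs the libraries because the labels give it as the strain, and both libraries of a number held the same coordinate steps. Deviations of same-numbered libraries correlated at -0.0162 to 0.144 across regions. The highest correlation with a library of another number was -0.0105 to 0.124, so same-numbered libraries were not clearly more alike. Nothing says that the libraries came from repeated cultures of 1 strain, so p values measure the spread between strains' libraries.

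Named regions were the 4 largest increases and 4 largest decreases in each of the 2 widths and 2 positions that passed in limma and moved one way in each of the 4 strain labels, plus GAL10–GAL7, PHO5–PHO3 and the 3 highest-scoring lost and gained nucleosomes. Named members of gene lists were chosen after their values were seen. The members and lists were chosen with earlier results of these data known. Alternatives were a score of 0.4 or more, assignment within 30 bp, gaps under 500 bp, gaps without non-coding genes, each library's own calls, centred scores, the width component, each library left out and the strain block. No sequence was used here, so planned motif counts were not made. The other steps used Python 3.11.15 (numpy 2.4.6, scipy 1.17.1, pandas 2.3.3).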

Additional observations from a re-analysis of the deposited data

Results flagged for a closer look

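In groups of 4 libraries, 118 were examined for a single library far from the other 3, and 12 held one, where chance alone gives about 1 in 20 groups. The treated library labelled strain 2 stood apart in 5 of the 12. Its mean score was 0.742 at upstream gene ends, against a median of 0.713 in the other 3, and 0.690 in tandem gaps, against 0.658. Its mean +1 position was -10.4 bp, against -8.62 bp. Its LDB16 terminal nucleosome lay at 43.5 bp, against 11 bp, and its BAP2 +1 at 42.5 bp, against 7 bp. The treated library labelled strain 4 stood apart in 4, with a median width of 272 bp on the start side where the other 3 had 270 bp, and 270 bp on the end side where they had 268 bp. Its class W share at downstream starts was 80.8%, against a median of 83.2%, and its YER175W-A terminal nucleosome lay at 94 bp, against 132 bp. The treated library labelled strain 1 had a start-side width of 367.5 bp at DSE4, against 389 bp. In untreated libraries, the one labelled strain 3 had the ALD3 +1 at -80 bp, against -106 bp, and the one labelled strain 1 had the PHO3 +1 at -76 bp, against -69 bp.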

How the results depend on the processing

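With 1 library per strain and treatment, the exact sign-flip test cannot pass: with the strain label as a replicate block, the 9 library measures called lost their calls at an exact sign-flip p of 0.125 with the same sizes (class W at ends -5.59, in gaps -7.38 and at starts -2.27 percentage points, score in gaps -0.0606 and at starts -0.0151, widths 11.6 and 11.25 bp, terminal position -6.65 bp, distance 11.2 bp), and in limma the block left 37 start-side widths, 5 +1 positions, 25 end-side widths, 12 terminal positions, 45 distances and 0 dyads. These limma counts with the block were made for tandem regions only. In the exact permutation tests, leaving out 1 library allows few splits, so a lost call there says little of stability. Limma uses no splits, and its counts depended on single libraries. The unknown depth limits what a score or a missing call can show. The cause of the changes listed here was not tested.

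Leaving out 1 library, the differences ranged from -0.0969 to -0.0541 for calls per gap, -0.0687 to -0.0555 for the score in gaps, -0.0178 to -0.0119 at starts, -6.43 to -4.83 for class W at ends, -8.63 to -6.42 in gaps, -2.68 to -1.68 at starts, 10.2 to 13.7 bp for start-side width, 10.5 to 13.8 bp for end-side width, 3.61 to 5.65 bp for +1, -7.83 to -5.91 bp for the terminal position, 9.55 to 13.6 bp for the distance, -0.729 to 0.716 points for regions with no call between, -0.114 to 0.290 bp for +1 against divergent, -0.0387 to 0.430 bp for start against end width and -0.00147 to 0.00877 for the score of starts against ends. Limma counts ranged from 94 to 763 start-side widths, 32 to 602 +1 positions, 31 to 424 end-side widths, 64 to 387 terminal positions, 91 to 750 distances, 372 to 918 scores and 32 to 567 dyads. The width component in gaps ranged from -0.0113 to 5.25e-05, turning without the treated library labelled strain 4, and the PHO3 +1 ranged from -3.17 to 1.5 bp, turning to 0.333, 0.833 and 1.5 bp without the untreated library labelled strain 3 and the treated ones labelled strains 1 and 2.

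With a score of 0.4 or more, calls per gap (-0.176) and +1 (4.78 bp) passed, while the score at starts (-0.0108) and class W in gaps (-4.22) and at starts (-1.54) did not, and the width component in gaps (0.00305), FIG2 (20.5 bp) and PEP4 (27.9 bp) turned. With assignment within 30 bp, 292 dyads were called, and +1 against divergent (-0.153 bp) and start against end width (-0.068 bp) turned. In gaps under 500 bp +1 against divergent turned (-0.289 bp), and the score in gaps (-0.0613) and at starts (-0.0145), class W at ends (-4.38), in gaps (-7.10) and at starts (-2.20), both widths (11.25 bp), the terminal position (-6.89 bp) and the distance (11.5 bp) no longer passed. Without non-coding genes the score at starts (-0.0146) no longer passed. With each library's own calls the distance was 5.93 bp, and +1 against divergent (-1.36 bp) and end width against convergent (-6.86 bp) turned. With centred scores ends (0.00477) and starts (0.00872) turned and gaps (-0.0367) no longer passed. With the width component, ends (-0.0223) passed, gaps (-0.0065) and starts (-0.00948) did not, and 371 nucleosomes were called.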
